A study of Mus musculus with 6 samples.

Results

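Cell cycle exit control in the lens was examined through 10 genes: the cyclin-dependent kinase (CDK) inhibitor genes Cdkn1a, Cdkn1b, Cdkn1c and Cdkn2c, the D cyclin genes Ccnd1, Ccnd2 and Ccnd3, and the retinoblastoma family genes Rb1, Rbl1 and Rbl2. They were chosen by name, as the rows that carry these symbols, from 41128 listed features, with earlier results of these data known. All 10 were among the 11941 genes that passed the filter of at least 1 CPM (reads of the gene scaled to a common library size) in at least 3 libraries. The libraries came from lenses of mouse embryos at E15.5. The conditional knockout (cKO) lenses carried floxed alleles of Itgb1, the gene of β1-integrin, and the MLR10 Cre transgene, in which a modified Cryaa promoter drives Cre in lens epithelial and fiber cells, on a mixed strain background. The wild-type lenses were C57Bl/6 with neither allele. Each group had 3 replicates, and 30 lenses were pooled for a cKO replicate and 75 for a wild-type one, and the wild-type records repeat an earlier series. Strain, Cre and the origin of the libraries follow the genotype, so their parts in any difference cannot be told apart.

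The lens grows from a sheet of dividing epithelial cells, and cells at its equator leave the cell cycle as they turn into fiber cells. D cyclins with CDK4 or CDK6 phosphorylate the retinoblastoma proteins, which otherwise hold E2F transcription factors in check and keep genes of DNA replication silent. Cip/Kip inhibitors (p21, p27 and p57) bind cyclin-CDK complexes, and INK4 inhibitors such as p18 bind CDK4 and CDK6 themselves. In mice, p57 together with p27, and Rb1, are needed for lens fiber cells to stop dividing.

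The libraries held 20036554 to 28095318 reads in cKO lenses and 10023049 to 11531139 in wild type, so 1 read was worth 0.0356 to 0.0499 CPM in cKO lenses and 0.0867 to 0.0998 CPM in wild-type lenses. Crystallin genes took 29.8% to 34.98% of the reads of cKO libraries and 31.6% to 34.8% of those of wild-type libraries. The targeted gene Itgb1 was at 258 ± 19.8 CPM in cKO lenses and 425 ± 22.97 CPM in wild-type lenses (SD, n = 3 each; log2 fold change -0.72, adjusted p = 1.63e-05 by limma). Fiber markers summed to 182569 to 207419 CPM in cKO lenses and 193866 to 208447 CPM in wild-type lenses, and epithelial markers to 1450 to 1595 CPM in cKO lenses and 1229 to 1236 CPM in wild-type lenses. Of the 9 fiber markers 0 were higher and 4 lower, Mip, Gja3, Dnase2b and the beaded filament gene Bfsp2, which was at 15.3 ± 1.37 CPM in cKO lenses and 653 ± 73.6 CPM in wild-type lenses (SD, n = 3 each; adjusted p = 2.50e-13 by limma). The other beaded filament gene of the list, Bfsp1, was not called (log2 fold change -0.18, adjusted p = 0.149 by limma). Strain follows genotype here, so its part in the Bfsp2 difference cannot be told apart. Of 6 tested epithelial markers, of 7 listed, Cdh1 and Clu were higher and Foxe3 and Pdpn lower. Sox2, which marks lens epithelium, was listed at 0 in every library, as was Foxc2 of the mesenchyme list, so their levels cannot be read here. Summed epithelial, endothelial, macrophage, pericyte and erythroid markers were higher in every cKO library than in any wild-type one. Sums of periocular mesenchyme, retina and pigment cell markers overlapped. Over all tested genes 20.9% were called higher and 15.9% lower. Endothelial markers were higher for 12 of 15 tested (254 to 302 CPM in sum in cKO, 159 to 193 in wild type) and macrophage markers for 10 of 10 tested, of 12 listed (29.3 to 41.0 CPM in cKO, 11.9 to 15.2 in wild type). Some low markers, such as Tyrobp, Fcer1g and Sox17, were under 1 CPM in every wild-type library. They were tested only through their cKO values. Of the 6 pericyte markers, 4 were higher and 1 lower (143 to 167 CPM in cKO, 102 to 130 in wild type), and of 6 tested periocular mesenchyme markers, of 11 listed, 4 were higher and 1 lower (201.4 to 241 CPM in cKO, 211 to 254 in wild type). Erythroid markers, of which 6 of 9 were tested, had 3 higher and 1 lower (350 to 625 CPM in cKO, 254 to 284 in wild type). Retina markers (1 of 2 tested higher, 6 listed) summed to 8.23 to 15.1 CPM in cKO lenses and 4.86 to 15.8 in wild type, and pigment cell markers (0 of 1 tested called, 4 listed) to 1.39 to 2.50 CPM in cKO lenses and 1.21 to 7.10 in wild type. The part of these cells in the results below was not tested, and in whole lenses fewer cells of a type and less RNA per cell cannot be told apart.

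Promoter windows from RefSeq (GRCm38.p6) were found for 6 of the 10 genes, in 9 windows, of which the 250 bases before the start were searched on both strands. The search was for the E2F words TTTCCCGC, TTTCGCGC, TTTGCCGC and TTTGGCGC and for the GC box GGGCGG, a word bound by Sp1 family factors. An E2F word stood in 1 of the 9 windows, that of Rbl1, and in 1.86% of all 32851 windows. GC boxes stood in 6 of the 9 windows and in 32.7% of all windows. The windows of Cdkn1a and Cdkn1b are shown because both genes were called higher in cKO, and that of Rbl1 because it alone of the 9 holds an E2F word. Capitals mark GC boxes and the E2F word, on either strand, and a match describes the letters only.
Cdkn1a, chr17:29093519-29093768, plus strand, the downstream one of its 2 listed starts: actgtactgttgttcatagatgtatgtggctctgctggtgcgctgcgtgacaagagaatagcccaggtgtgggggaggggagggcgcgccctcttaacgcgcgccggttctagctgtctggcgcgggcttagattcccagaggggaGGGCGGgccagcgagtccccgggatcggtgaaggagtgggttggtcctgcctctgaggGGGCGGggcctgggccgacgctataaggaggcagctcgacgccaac
Cdkn1b, chr6:134920151-134920400, plus strand: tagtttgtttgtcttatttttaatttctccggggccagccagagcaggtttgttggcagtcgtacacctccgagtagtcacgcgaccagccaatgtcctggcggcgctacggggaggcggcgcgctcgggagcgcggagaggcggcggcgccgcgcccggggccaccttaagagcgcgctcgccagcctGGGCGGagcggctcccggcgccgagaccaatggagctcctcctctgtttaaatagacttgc
Rbl1, chr2:157204535-157204784, minus strand: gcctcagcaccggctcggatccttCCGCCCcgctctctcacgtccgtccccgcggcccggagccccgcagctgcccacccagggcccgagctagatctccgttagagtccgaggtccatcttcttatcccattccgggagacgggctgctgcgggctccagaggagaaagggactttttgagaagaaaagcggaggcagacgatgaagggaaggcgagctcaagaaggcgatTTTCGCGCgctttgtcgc
The E2F word of Rbl1, TTTCGCGC, begins 18 bases before the start. The GC boxes of Cdkn1a begin 104 and 46 bases before its downstream start, and that of Cdkn1b 61 bases before its own start. The window at the upstream start of Cdkn1a, not shown, held 0 GC boxes. Cdkn1c, Ccnd1, Ccnd2 and Rb1 are named only.

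Of the 10 genes, Rb1, Cdkn1b and Cdkn1a were higher in cKO lenses and Cdkn1c and Ccnd1 were lower. The other 5, Cdkn2c, Ccnd2, Ccnd3, Rbl1 and Rbl2, did not pass the test. The test was limma on log2(CPM + 1) across all 11941 genes, and genes were called where the p after Benjamini-Hochberg adjustment was under 0.05. Of all tested genes 36.9% were called, 20.9% higher and 15.9% lower, beside 5 of 10 members called, 3 higher and 2 lower. Members whose groups did not overlap numbered 5, beside 48.1% of all genes, so the genes are described singly below and nothing is read from their number. After correction for GC content and length the calls over all genes split into 1966 higher and 2375 lower, against 2499 higher and 1904 lower without it. The members' median log2 fold change was -0.06, against 0.03 over all genes. Fold changes on this scale understate the change of low genes.

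**Figure D1:**
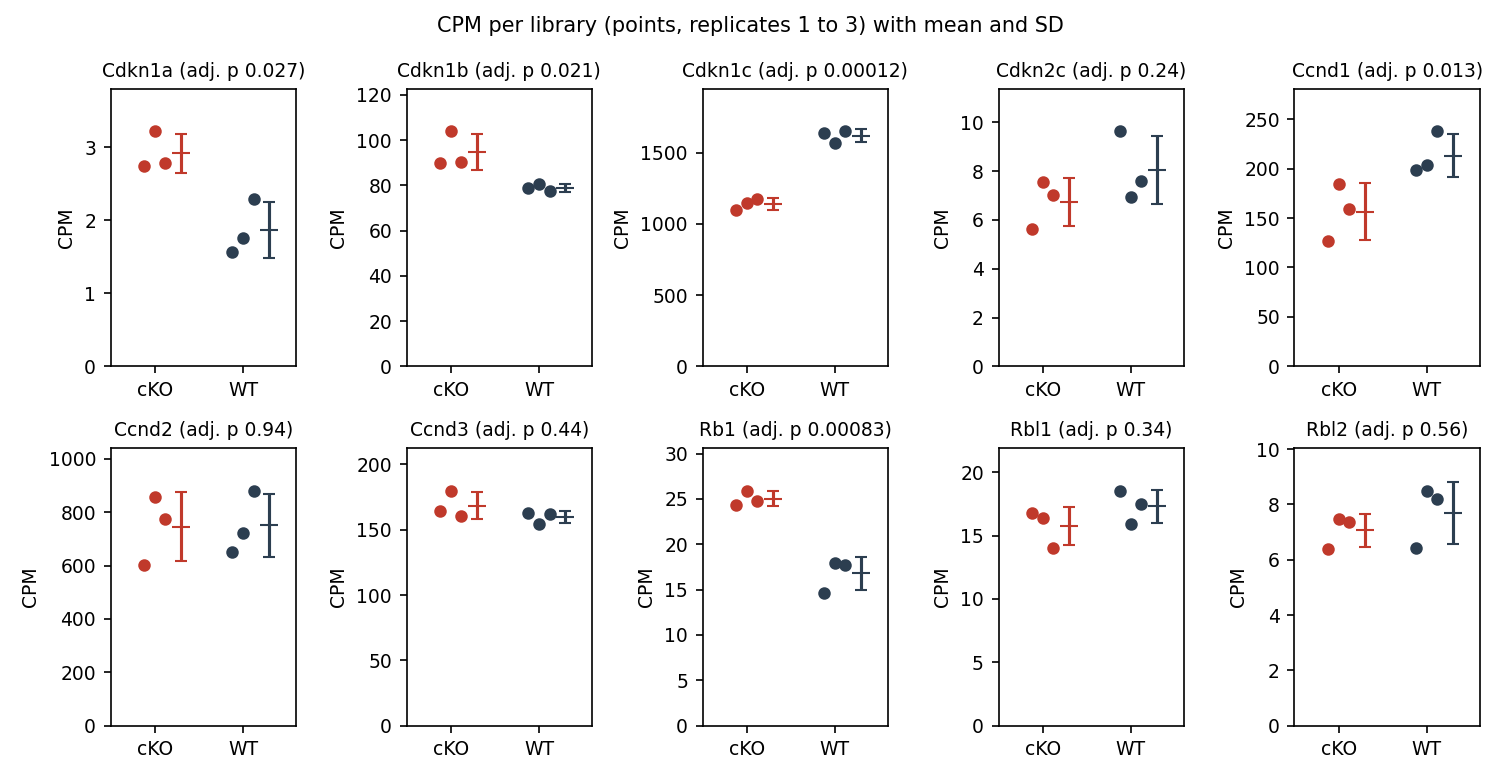
CPM of each of the 10 genes in the cKO (red) and wild-type (dark) libraries, with 1 point per library and the mean and SD beside them; each panel has its own axis from 0. The groups are apart for Cdkn1a, Cdkn1b, Cdkn1c, Ccnd1 and Rb1 and overlap for the other 5.

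The genes lay at very different levels per length. In RPKM (reads per kilobase of gene length, scaled likewise), Cdkn1c led with 590 ± 20.9 in cKO lenses and 838 ± 23.6 in wild type (SD, n = 3 each), rank 43 in cKO and rank 35 in wild type among the tested genes. In cKO lenses Ccnd2 (131 ± 22.7), Ccnd1 (40.8 ± 7.55), Ccnd3 (27.4 ± 1.65) and Cdkn1b (20.8 ± 1.74) followed, and their ranges did not overlap. Rb1 (4.16 ± 0.134) came next, then Rbl1 (2.63 ± 0.250) and Cdkn2c (2.51 ± 0.370), which overlapped each other, and last Cdkn1a (1.31 ± 0.118) and Rbl2 (1.02 ± 0.0858), which did not. The first 5 kept this order in wild-type lenses, with Ccnd2 at 132 ± 20.7, Ccnd1 at 55.6 ± 5.58, Ccnd3 at 25.97 ± 0.738 and Cdkn1b at 17.4 ± 0.376 RPKM. Lower down, Cdkn2c (2.995 ± 0.524), Rbl1 (2.89 ± 0.218) and Rb1 (2.79 ± 0.309) overlapped in wild type, as did Rbl2 (1.11 ± 0.161) and Cdkn1a (0.841 ± 0.171). Rb1 thus stood above Rbl1 and Cdkn2c in every cKO library but was among them in wild type.

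Cdkn1c (ENSMUSG00000037664; GRCm38 chromosome 7, 143458339 to 143461050, minus strand, protein coding), an imprinted gene expressed from the maternal allele, encodes p57, which holds fiber cells out of the cycle. It was at 1096, 1145 and 1176 CPM in cKO replicates 1, 2 and 3 and at 1638, 1566 and 1651 CPM in wild-type replicates 1, 2 and 3. Every cKO library was below every wild-type library, by far more than replicates differed. The log2 fold change was -0.51 (SE 0.068, 95% interval -0.65 to -0.36, adjusted p = 0.000120 by limma). Of its 50-base words, the length of the reads, 24.9% also occur in transcripts of Gm44732, an antisense gene over its exons. The libraries do not mark strand, so reads from these bases cannot be assigned to 1 of the 2 genes. Among the tested genes with a proper name, those whose log2(CPM + 1) over the 6 libraries lay nearest to that of Cdkn1c, each centred on its own mean, were Elovl1, a fatty acid elongase gene (distance 0.0623), Sec23b, a COPII coat gene (0.0628), and the semaphorin gene Sema5b (0.0679). Elovl1 was at 18.04 ± 0.188 CPM in cKO lenses and 25.9 ± 0.642 CPM in wild-type lenses.

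Of its neighbours in the imprinted domain of distal chromosome 7, 6 of 10 listed were tested, and 0 were higher and 1 was lower, beside 36.9% of all genes called. The lower one was Osbpl5, at 25.8 ± 2.36 CPM in cKO lenses and 35.1 ± 1.64 CPM in wild-type lenses (log2 fold change -0.43, adjusted p = 0.00237). Nap1l4 (-0.05, adjusted p = 0.566) and Cars (0.06, adjusted p = 0.534) were not called, nor was Kcnq1, which contains the control region of the domain (0.45, adjusted p = 0.0574), although Kcnq1 was called after correcting for GC content and length and when wild-type replicate 3 was left out. Kcnq1ot1, the antisense transcript of that region, was listed at 0 in every library, so its level cannot be read here.

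Cdkn1b (ENSMUSG00000003031; chromosome 6, 134920401 to 134925513, plus strand) encodes p27. It was at 89.9, 104 and 90.4 CPM in cKO replicates 1, 2 and 3, against 78.9, 80.7 and 77.3 CPM in wild-type replicates 1, 2 and 3. The groups did not overlap, and cKO replicate 2 stood above the other cKO libraries. The log2 fold change was 0.26 (SE 0.079, 95% interval 0.09 to 0.43, adjusted p = 0.0209 by limma). It was not called when cKO replicate 2 was left out (log2 fold change 0.19, adjusted p = 0.0867), when wild-type replicate 2 was (0.27, adjusted p = 0.0541), or after correction for GC content and gene length (0.09, adjusted p = 0.283).

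Cdkn1a (ENSMUSG00000023067; chromosome 17, 29090976 to 29100727, plus strand) encodes p21, a target of p53. It was scarce, at 2.74, 3.22 and 2.78 CPM in cKO replicates 1, 2 and 3 and 1.56, 1.75 and 2.29 CPM in wild-type replicates 1, 2 and 3, and so rested on 55 to 78 reads in a cKO library and 18 to 23 in a wild-type library. Of its words, 8.49% also occur in other transcripts. The groups did not overlap, but wild-type replicate 3 came close to the lowest cKO library. The log2 fold change was 0.45 (SE 0.15, 95% interval 0.14 to 0.77, adjusted p = 0.0271 by limma). The call was lost without any 1 library other than wild-type replicate 3 (adjusted p = 0.0508 to 0.0961), with DESeq2 (adjusted p = 0.113) and with reads thinned to 10023049 per library (log2 fold change 0.33, adjusted p = 0.156).

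Other targets of p53 were 5 of 11 higher and 0 lower, beside 20.9% of all genes higher and 15.9% lower. Their median log2 fold change was 0.06. Mdm2 (-0.16), Bax (-0.08), Ccng1 (0.06), Sesn2 (-0.16), Zmat3 (-0.10) and Plk3 (-0.19) were not called. Fas, a death receptor gene, averaged 9.19 ± 1.77 CPM in cKO lenses and 2.59 ± 0.451 CPM in wild-type lenses (SD, n = 3 each; adjusted p = 9.45e-06 by limma). Phlda3, an AKT inhibitor gene, rose by 1.28 on the log2 scale, the polo-like kinase gene Plk2 by 0.83 and Trp53inp1, a p53 cofactor gene, by 0.80. Trp53 itself was at 43.9 ± 4.69 CPM in cKO lenses and 48.2 ± 4.19 CPM in wild-type lenses (adjusted p = 0.289). With correction for GC content and length, 2 of the 11 were lower.

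Within the Cip/Kip family, Cdkn1c held 96.4% ± 0.293 of the summed RPKM in cKO lenses and 97.9% ± 0.0928 in wild type (SD, n = 3 each). Cdkn1b held 3.40% ± 0.275 in cKO lenses and 2.03% ± 0.0988 in wild type, and Cdkn1a 0.214% ± 0.0184 in cKO lenses and 0.0981% ± 0.0188 in wild type. The family's sum was 612 ± 21.3 RPKM in cKO lenses and 856 ± 23.3 RPKM in wild-type lenses. These shares are descriptions, with no test.

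Cdkn2c (ENSMUSG00000028551; chromosome 4, 109660876 to 109667189, minus strand) encodes p18, an INK4 inhibitor. It was at 5.64, 7.57 and 7.01 CPM in cKO replicates 1, 2 and 3 and at 9.63, 6.93 and 7.58 CPM in wild-type replicates 1, 2 and 3. The groups overlapped, and the highest value was wild-type replicate 1 (log2 fold change -0.22, 95% interval -0.52 to 0.08, adjusted p = 0.237 by limma). Of the other INK4 genes, Cdkn2b, which encodes p15, was higher, at 1.70, 2.37 and 2.38 CPM in cKO replicates 1, 2 and 3 and 0.520, 0.526 and 0.698 CPM in wild-type replicates 1, 2 and 3 (log2 fold change 0.99, adjusted p = 0.000367). Every wild-type value of Cdkn2b was under 1 CPM, so it was tested only through its cKO values. Its call is therefore given as a description and not as support for a change. Without any 1 cKO library Cdkn2b no longer passed the filter on low values and was not tested. Cdkn2d was not called (-0.11, adjusted p = 0.376). Cdkn2a, named after its values were seen, fell below the filter, with 0.449, 0.495 and 0.747 CPM in cKO replicates 1, 2 and 3 and 0.0867, 0.0877 and 0 CPM in wild-type replicates 1, 2 and 3.

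**Figure D2:**
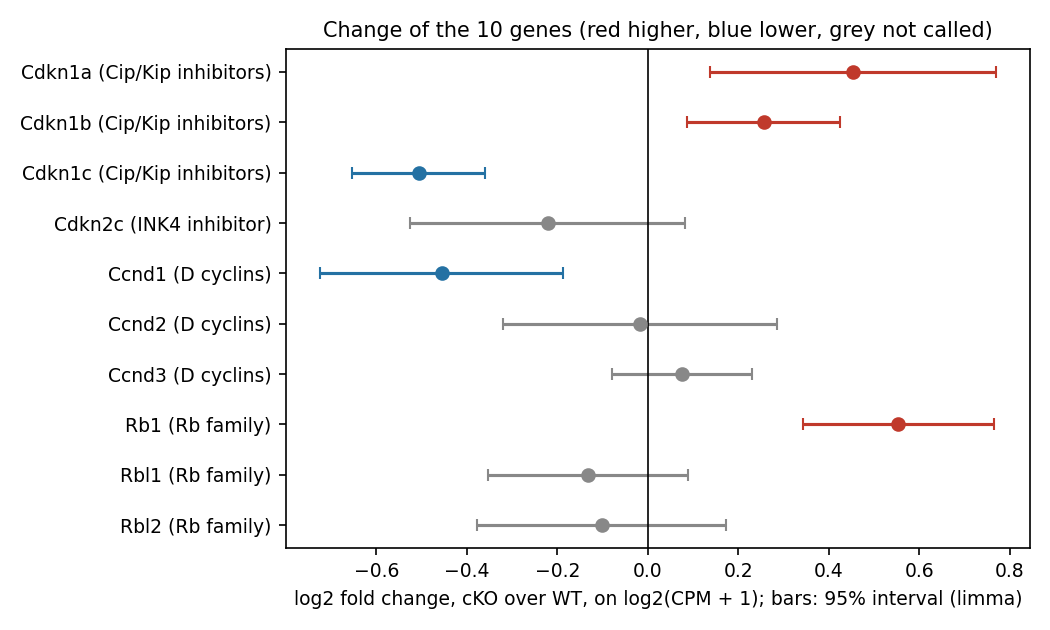
Log2 fold change of cKO over wild type on log2(CPM + 1) for the 10 genes, with the 95% interval from limma. Cdkn1a, Cdkn1b and Rb1 (red) lie above 0, Cdkn1c and Ccnd1 (blue) below 0, and the intervals of the 5 uncalled genes (grey) include 0.

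Ccnd1 was the one D cyclin gene that was called, and it was lower in cKO lenses. Cyclin D1 (ENSMUSG00000070348; chromosome 7, 144929931 to 144939925, minus strand) links growth signals to CDK4 and CDK6. Ccnd1 was at 126, 184 and 159 CPM in cKO replicates 1, 2 and 3 and at 198, 203 and 238 CPM in wild-type replicates 1, 2 and 3. Every cKO library was below every wild-type library, with cKO replicate 2 nearest to the wild-type range. The log2 fold change was -0.46 (SE 0.12, 95% interval -0.72 to -0.19, adjusted p = 0.0132 by limma), and it stayed called under all 18 alternatives (-0.58 to -0.31). Of its words, 21.6% occur in transcripts of LTO1 on the other strand, a gene that was at 20.5 CPM in cKO lenses and 21.4 CPM in wild-type lenses.

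Ccnd2 (ENSMUSG00000000184; chromosome 6, 127125162 to 127152193, minus strand), the D cyclin gene with the most transcript here, varied widely within groups. It was at 603, 857 and 774 CPM in cKO replicates 1, 2 and 3 and at 650.5, 723 and 881 CPM in wild-type replicates 1, 2 and 3. The groups overlapped almost fully (log2 fold change -0.02, 95% interval -0.32 to 0.29, adjusted p = 0.938 by limma), and the sign turned when cKO replicate 1 or wild-type replicate 3 was left out and after correction for GC content and length. Ccnd3 (ENSMUSG00000034165; chromosome 17, 47505051 to 47599691, plus strand), a D cyclin gene found in many differentiated tissues, was at 164, 180 and 161 CPM in cKO replicates 1, 2 and 3 and at 163, 155 and 162 CPM in wild-type replicates 1, 2 and 3. It overlapped too (log2 fold change 0.08, 95% interval -0.08 to 0.23, adjusted p = 0.443) and was called higher only under correction for GC content and length among the 18 alternatives (0.17, adjusted p = 0.0332). Neither interval shows equal levels, since that of Ccnd2 allows a difference in either direction and that of Ccnd3 mostly an increase.

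Ccnd1 held 19.9%, 21.1% and 20.4% of the summed RPKM in cKO replicates 1, 2 and 3, against 26.9%, 25.9% and 25.5% in wild-type replicates 1, 2 and 3. The groups were apart by several times the spread within them. Ccnd2 held 65.6% ± 1.47 in cKO lenses and 61.6% ± 2.17 in wild type, and Ccnd3 13.96% ± 1.90 in cKO lenses and 12.3% ± 1.47 in wild type. The family's sum was 199 ± 31.3 RPKM in cKO lenses and 213 ± 26.3 RPKM in wild-type lenses. Replicate 1 had the lowest sum in both groups, and also the highest share of reads in crystallin genes in both groups (34.98% in cKO lenses and 34.8% in wild-type lenses).

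**Figure D3:**
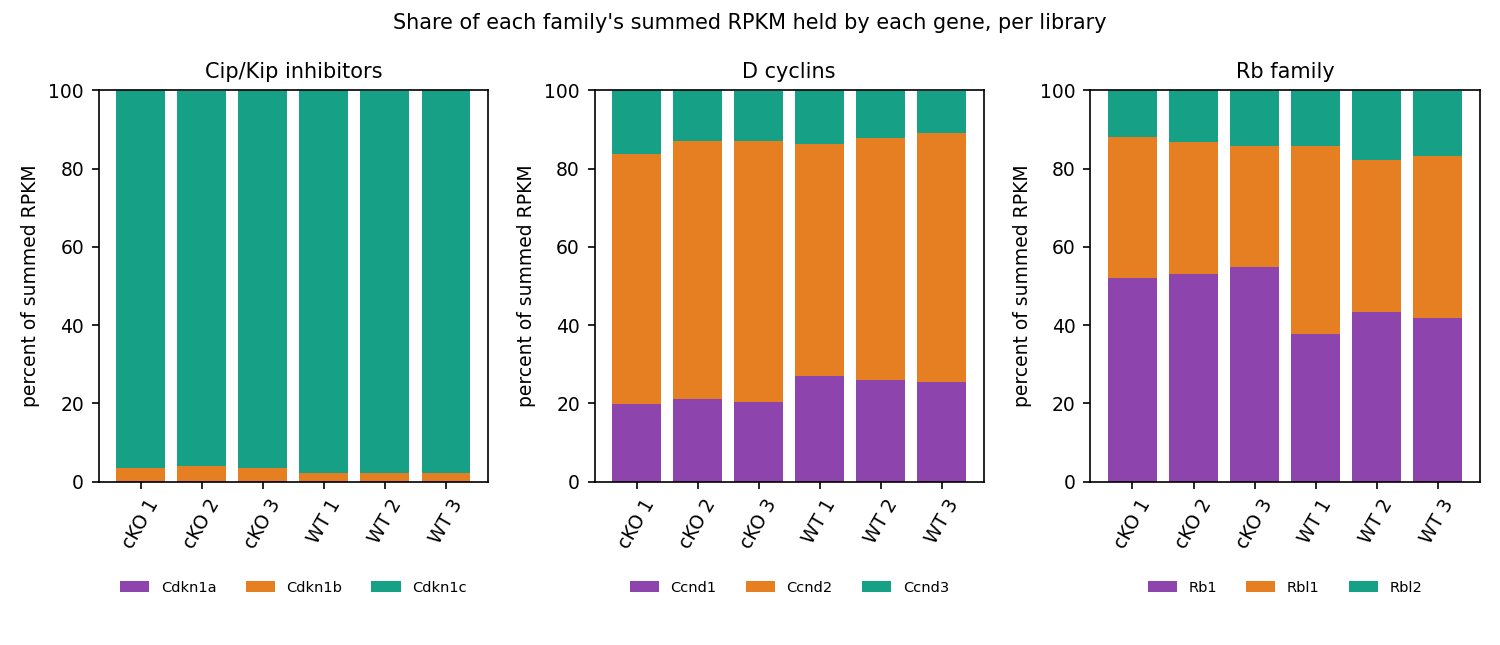
Percent of each family's summed RPKM held by each of its genes, as stacked bars for the 3 cKO and the 3 wild-type libraries. Cdkn1c fills over 96% of the Cip/Kip bars, Ccnd1 holds less in cKO than in wild type, and Rb1 holds more.

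Among the retinoblastoma family Rb1 was higher in cKO lenses, while the other two were not called. Rb1 (ENSMUSG00000022105; chromosome 14, 73183673 to 73325822, minus strand) encodes the protein that binds activating E2Fs. It was at 24.4, 25.9 and 24.8 CPM in cKO replicates 1, 2 and 3 and at 14.7, 17.97 and 17.8 CPM in wild-type replicates 1, 2 and 3. The cKO libraries lay close together and all above the wild-type ones. The log2 fold change was 0.55 (SE 0.098, 95% interval 0.34 to 0.76, adjusted p = 0.000830 by limma). It stayed called under all 18 alternatives, but was 0.33 with correction for GC content and length (adjusted p = 0.00592). Exons of Rcbtb2 and Lpar6 overlap those of Rb1 on the other strand, and 6.63% of its distinct words occur in Rcbtb2 and 5.33% in Lpar6, 11.96% in all. Rcbtb2 was at 17.2 CPM in cKO lenses and 19.1 CPM in wild-type lenses. Lpar6 was listed at 0, so its level cannot be read here. Since strand is not marked, reads from the shared bases cannot be assigned to 1 gene, and their part in the Rb1 value was not tested.

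Rbl1 (ENSMUSG00000027641; chromosome 2, 157145893 to 157204534, minus strand) encodes p107, a pocket protein of dividing cells. It was at 16.8, 16.4 and 14.02 CPM in cKO replicates 1, 2 and 3 and at 18.6, 15.95 and 17.5 CPM in wild-type replicates 1, 2 and 3. The groups overlapped (log2 fold change -0.13, 95% interval -0.35 to 0.09, adjusted p = 0.338 by limma). Correcting for GC content and length made it a lower call (-0.31, adjusted p = 0.0261). Rbl2 (ENSMUSG00000031666; chromosome 8, 91070057 to 91123844, plus strand) encodes p130, the pocket protein of resting cells. It was at 6.39, 7.47 and 7.37 CPM in cKO replicates 1, 2 and 3 and at 6.42, 8.50 and 8.18 CPM in wild-type replicates 1, 2 and 3, with overlap (log2 fold change -0.10, 95% interval -0.38 to 0.17, adjusted p = 0.564). Of the words of Rbl2, 17.1% are shared, with Aktip on the other strand among the genes that hold them.

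Per length, Rb1 held 52.1%, 53.1% and 54.8% of the family's summed RPKM in cKO replicates 1, 2 and 3, against 37.7%, 43.5% and 41.9% in wild-type replicates 1, 2 and 3. Rbl1 held 33.6% ± 2.47 in cKO lenses and 42.7% ± 4.75 in wild type, and Rbl2 13.0% ± 1.14 in cKO lenses and 16.2% ± 1.79 in wild type. The sum was 7.80 ± 0.302 RPKM in cKO lenses and 6.79 ± 0.301 RPKM in wild-type lenses. Rb1 thus held over 50% of the family's transcript in each cKO library and under 50% in each wild-type library.

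**Figure D4:**
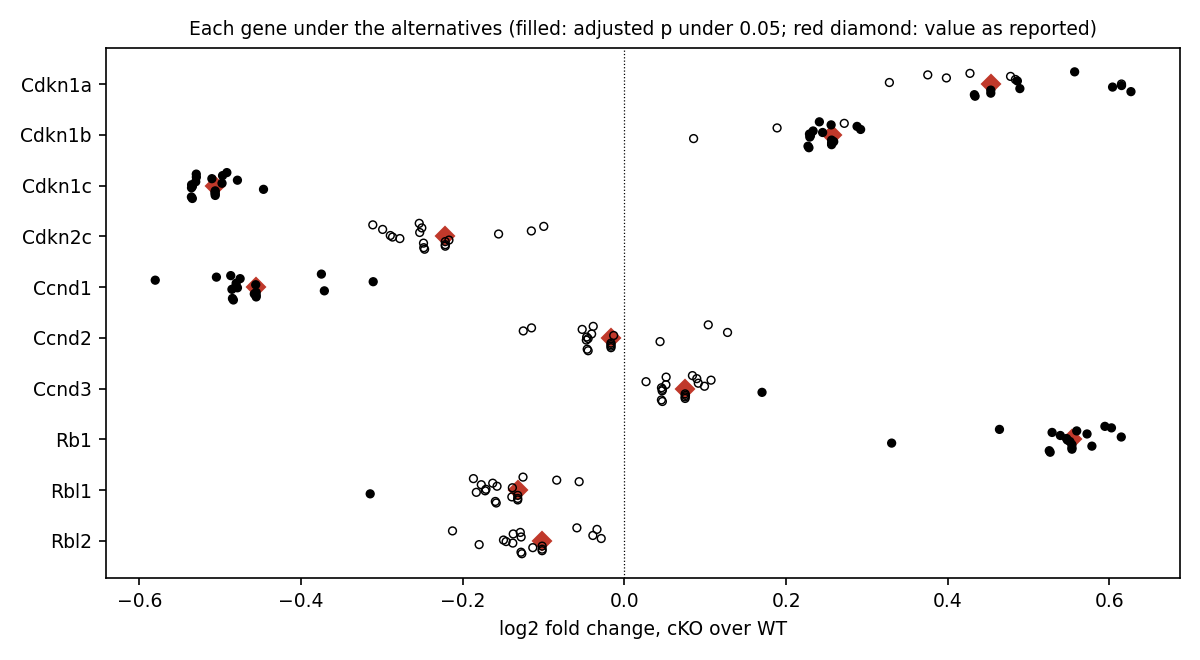
Log2 fold change of cKO over wild type for each gene under each alternative analysis (circles, filled where the adjusted p was under 0.05) and as reported (red diamonds). Cdkn1c, Ccnd1 and Rb1 are filled throughout, Cdkn1a and Cdkn1b in part, and the circles of Ccnd2 lie on both sides of 0.

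Of 6 genes for CDKs of G1 and S phase and for the CDK-activating kinase and its cyclin and assembly subunits, 1 was higher and 0 lower, beside 36.9% of all genes called, with a median log2 fold change of 0.01. Cdk4, the main partner of D cyclins, was at 167 ± 9.72 CPM in cKO lenses and 168 ± 8.19 CPM in wild-type lenses (SD, n = 3 each; log2 fold change -0.01, adjusted p = 0.904). Cdk6 (-0.07, adjusted p = 0.782) and Cdk2, the partner of cyclins E and A (-0.26, adjusted p = 0.0848), were not called, although Cdk2 was called lower with TMM or RLE scaling, correction for GC content and length, limma-voom and edgeR and without cKO replicate 2. Mnat1, the assembly factor of the CDK-activating kinase, rose by 0.36 (adjusted p = 0.00774), a call that correcting for GC content and length removed, and its partner Ccnh was not called (0.18, adjusted p = 0.118).

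Some cyclins that act after the D cyclins were lower. Of 4 tested E and A cyclins and Cdc25a, 2 were lower and 0 higher, beside 15.9% of all genes lower and 20.9% higher. Ccne1, which drives entry into S phase, was at 9.73, 11.7 and 9.04 CPM in cKO replicates 1, 2 and 3 and 15.96, 13.6 and 15.0 CPM in wild-type replicates 1, 2 and 3 (log2 fold change -0.51, adjusted p = 0.00371), without overlap. Ccna2 fell by 0.45 (adjusted p = 0.0103), no longer called when cKO replicate 3 was left out. Ccne2 (-0.35, adjusted p = 0.291) and the phosphatase gene Cdc25a (-0.26, adjusted p = 0.0712) did not pass, although Cdc25a was called lower under 8 of the 18 alternatives, TMM and RLE scaling among them.

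E2F and DP factor genes, whose products the retinoblastoma proteins bind, had 1 of 10 higher and 2 lower, with a median log2 fold change of -0.20. These counts stand beside 20.9% of all genes higher and 15.9% lower. Tfdp2, a DP partner of E2F, was the one that rose, to 29.4, 37.3 and 30.4 CPM in cKO replicates 1, 2 and 3, against 16.7, 18.4 and 18.6 CPM in wild-type replicates 1, 2 and 3 (log2 fold change 0.81, adjusted p = 6.15e-05). Its paralog Tfdp1 fell by 0.37 (adjusted p = 0.00405), as did the activator gene E2f3 by 0.31 (adjusted p = 0.00874). E2f1 (-0.25, adjusted p = 0.0869), E2f2 (-0.13, adjusted p = 0.475), E2f4 (-0.16, adjusted p = 0.215), E2f5 (0.20, adjusted p = 0.0603) and E2f7 (-0.57, adjusted p = 0.0520) were not called. Under the 18 alternatives E2f1 was called lower in 6, E2f7 lower in 8 and E2f5 higher in 1, and 4 of the list were lower with TMM or RLE scaling.

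The MuvB core joins Rbl1 or Rbl2 in resting cells and Mybl2 and Foxm1 in dividing cells. Of 8 genes, 1 was higher and 2 lower, beside 20.9% of all genes higher and 15.9% lower. Foxm1 was at 17.7 ± 3.69 CPM in cKO lenses and 25.9 ± 2.74 CPM in wild-type lenses (SD, n = 3 each; log2 fold change -0.54, adjusted p = 0.00606), and Mybl2 fell by 0.47 (adjusted p = 0.0148), no longer called when cKO replicate 1 or 3 was left out. Lin9, a core subunit, rose by 0.41 (adjusted p = 0.0237), a call lost under 7 of the 18 alternatives, and Lin52 was not called (0.24, adjusted p = 0.128).

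Ubiquitin ligase genes that act on CDK inhibitors and cyclins had 3 of 14 higher and 4 lower. Over all genes 20.9% were higher and 15.9% lower. The SCF ligase that turns over p27 had parts called in both directions. Skp2, the F-box receptor of p27, was at 20.8 ± 2.39 CPM in cKO lenses and 27.2 ± 2.09 CPM in wild-type lenses (SD, n = 3 each; log2 fold change -0.38, adjusted p = 0.0103), no longer called when cKO replicate 3 was left out. Cks1b, the cofactor of Skp2, fell by 0.54 (adjusted p = 0.00215). The adaptor gene Skp1a rose by 0.24 (adjusted p = 0.0291), but was not called higher after correction for GC content and length. The scaffold gene Cul1 (0.10, adjusted p = 0.301) and the RING subunit gene Rbx1 (0.0074, adjusted p = 0.953) were not called. Ambra1, a receptor for D cyclins, fell by 0.28 (adjusted p = 0.0195), no longer called when cKO replicate 1 or 3 or wild-type replicate 3 was left out. Cul4b rose by 0.38 (adjusted p = 0.00508), a call that correcting for GC content and length removed. That correction gave 0 higher and 8 lower for the list, and leaving out cKO replicate 3 gave 1 lower.

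Genes of replication and of mitosis were mostly lower. Of 13 E2F target genes of DNA replication, 12 were lower and 0 higher, with a median log2 fold change of -0.50, against 15.9% of all genes lower. The 4 with the smallest adjusted p were the replication licensing genes Mcm5 (-0.74), Mcm3 (-0.60) and Mcm7 (-0.50) and the ribonucleotide reductase gene Rrm2 (-0.54). An E2F word stood in the promoter windows of 4 of the 11 replication genes that have one, Cdc6, Mcm5, Mcm6 and Mcm7, and in those of 2.16% of all genes. It also stood in those of 3 of 8 E2F and DP factor genes and 1 of 11 mitotic genes. The replication and mitotic lists were chosen with earlier results of these data known, so their counts are descriptions and test nothing. The replication list was chosen as E2F targets, and a link between the word and the change was not tested. Rbl1, which also has that word, was itself not called. Mitotic genes were 8 of 12 lower and 0 higher (median -0.55), among them the kinase genes Aurkb (-0.85), Bub1b (-0.75), Plk1 (-0.73) and Cdk1 (-0.63). Under the alternatives 9 to 12 replication genes and 8 to 10 mitotic genes were lower. These counts stand beside the higher sums of epithelial, endothelial, macrophage, pericyte and erythroid markers given above.

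Factors that act on these genes in lens were called about as often as all genes. Of 18 tested upstream regulators, 1 was higher and 5 lower, beside 36.9% of all genes called, with a median log2 fold change of -0.07. Prox1, which in mice is needed for expression of Cdkn1b and Cdkn1c in lens fibers, was at 1083 ± 76.1 CPM in cKO lenses and 1125 ± 81.6 CPM in wild-type lenses (SD, n = 3 each; log2 fold change -0.05, adjusted p = 0.633). Maf, a fiber transcription factor gene, rose to 1460, 1436 and 1476 CPM in cKO replicates 1, 2 and 3, against 993, 1087 and 1011 CPM in wild-type replicates 1, 2 and 3 (log2 fold change 0.50, adjusted p = 0.000134). Gata3, which in mice is needed for cell cycle exit of fibers, fell to 27.9 ± 2.49 CPM in cKO, against 37.3 ± 2.10 CPM in wild-type lenses (-0.41, adjusted p = 0.00325). Myc fell by 0.72 (adjusted p = 0.00355), and Notch3, also a pericyte marker, by 0.71 (adjusted p = 0.0179), no longer called when cKO replicate 3 was left out. Sox1, a fiber factor gene, was listed at 0 in every library, so its level cannot be read here. Without cKO replicate 3, 2 of the list were lower, and with correction for GC content and length 3 were higher.

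**Figure D5:**
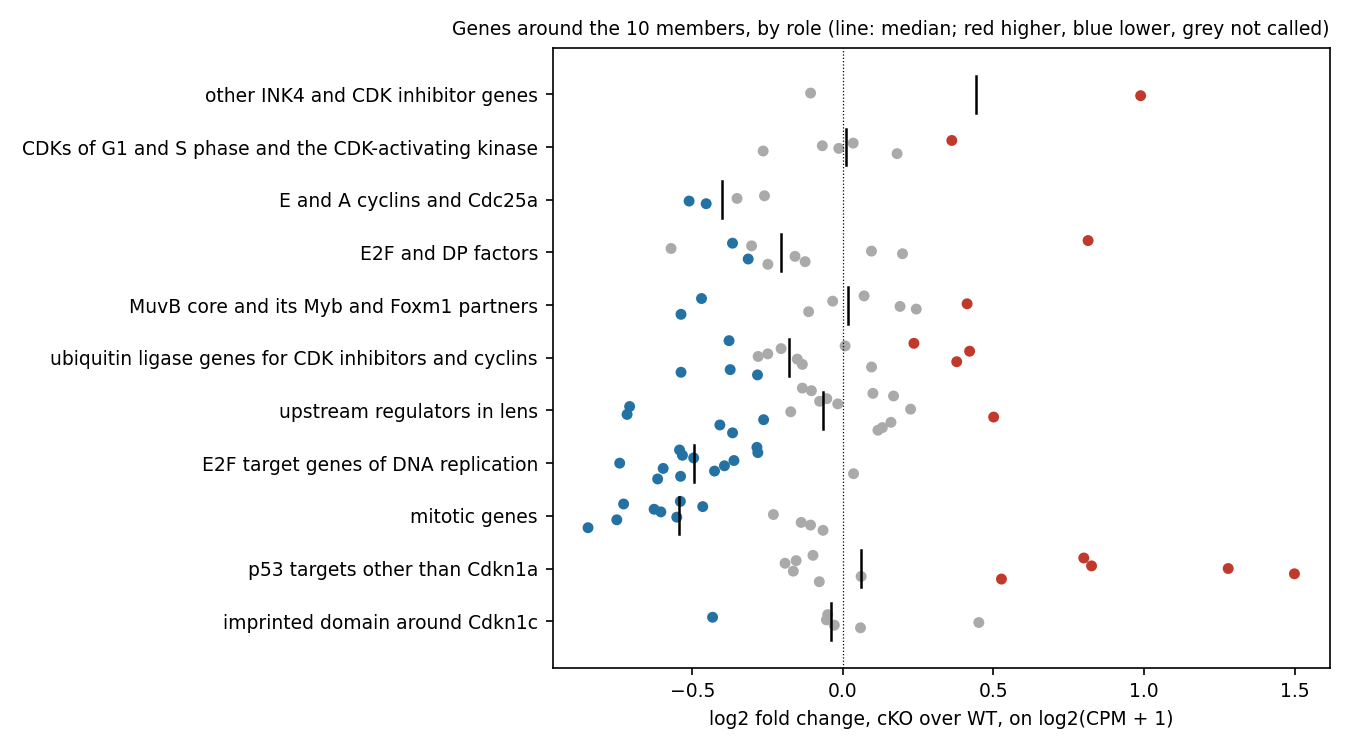
Log2 fold change of cKO over wild type for each tested gene of 11 lists around the 10 genes, 1 point per gene, with the list's median as a line. Points of the replication list lie below 0 for 12 of 13 genes and those of the mitotic list for all 12, whereas the CDK list lies around 0.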

How the data were processed

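Poly(A) RNA of pooled E15.5 lenses was read single-end after TruSeq RNA v2 library preparation, per the labels' protocols; that kit does not mark strand. Per the file headers, the deposited files hold the authors' CPM and RPKM values for 41128 features. The submitters' processing notes name edgeR and GRCm38; aligner, counter and annotation release: not given in the sources used here. All CPM values were whole multiples of 1 read within 0.05 reads (100% of values in each library), so reads were recovered. Rows lacking an Ensembl identifier held 0.192% to 0.208% of reads.

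Genes that reached 1 CPM in 3 or more libraries were tested with limma 3.58.1 (R 4.3.3; limma-trend, robust, group as the only term) on log2(CPM + 1), with Benjamini-Hochberg adjustment over all genes. P-values measure the spread between pools of lenses. As alternatives, edgeR 4.0.16, which called 4776 genes, and DESeq2 1.42.0 used recovered reads. Shared 50-base words and coordinates came from GENCODE M21 (GRCm38). On counts simulated for this comparison over 11941 genes, the test recovered 92% of 100 genes changed 1.5-fold and 99% of 100 changed 2-fold. Of 206 calls, 15 were false. Far fewer genes were changed there than the 36.9% called in the data, so these rates cannot be carried over to the reported calls. They were not given by expression level, so none is known for scarce genes such as Cdkn1a and Cdkn2b.

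Named genes are the 10 members, Itgb1, up to 4 tested genes of each role list with the smallest adjusted p, and a fixed set of CDKs, cyclins, E2Fs and Prox1. Trp53, the uncalled p53 targets, Cdkn2a, Skp1a, Cul1 and Rbx1 stand outside this rule. So do cell type markers and genes named for an overlap, a word or a value of 0. Members and lists were chosen with earlier results of these data known.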

Additional observations from a re-analysis of the deposited data

How the results depend on the processing

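Calls and fold changes were recomputed under 18 alternatives. Of these, thinned reads and CPM over reads outside crystallin genes were chosen after seeing the data. Family shares were recomputed only by leaving out 1 library, and ranks, marker sums and nearest patterns were not recomputed. Leaving out 1 library gave 3 to 5 members called, 1 to 3 higher and 2 lower, with 3 called without cKO replicate 2 or wild-type replicate 2; over all genes it gave 3036 to 3953 calls, against 4403 with all libraries. The other alternatives gave 4 to 6 members called and 3677 to 5165 calls. Correction for GC content and length turned the split over all genes to 1966 higher and 2375 lower, against 2499 higher and 1904 lower, and TMM scaling gave 2411 and 2364; the cause was not tested. Of 179 member values, 164 kept direction and side of the threshold, 10 lost a call, 2 gained one and 3 changed sign; of 929 values of the 52 other named genes the counts were 870, 17, 33 and 9. With correction for GC content and length, Ccnd2 turned to 0.044, Cdk4 to 0.064, Cdk6 to 0.025 and Ccnh to -0.081 on the log2 scale, and Cdk4 was at 0.0088 with thinned reads. When 1 library was left out, Ccnd2 ranged from -0.13 to 0.13, Cdk4 from -0.044 to 0.035, Cdk6 from -0.19 to 0.13 and Prox1 from -0.11 to 0.0052. Cdkn1a fell below the stricter filter, a mean of 5 CPM. Depth limits the scarce genes: Cdkn1a had 18 to 23 reads and Cdkn2b 6 to 7 reads in a wild-type library.

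Deviations of same-numbered cKO and wild-type libraries correlated at 0.33, -0.034 and 0.15, so the numbers were not taken as pairs, and not every library correlated best with its own number. With the replicate block 5165 genes and 5 members were called, 3 higher and 2 lower, and Cdk2, Cdc25a, E2f5, E2f7 and Kcnq1 gained a call (adjusted p = 0.0423, 0.0358, 0.0483, 0.00420 and 0.0274).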
